A study of Mus musculus with 12 samples.

Results

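Sfmbt2, a Polycomb group gene of mouse chromosome 2, holds in a single intron one of the largest arrays of miR genes in the mouse genome, made up of miRs of the miR-297, miR-466, miR-467 and miR-669 families. The rows of the deposited count table were taken as members where any of their joined names belongs to miR-297, miR-466, miR-467 or miR-669, whatever the letter and arm. This gave 55 of the 1927 rows, which hold 80 mature miR names because 13 rows join 2 or more names. The livers came from female E18.5 fetuses, 5 WT and 7 Mir483Pat-KO littermates, with 1 small RNA library per fetus. Mir483Pat-KO fetuses inherited from their father a deletion of Mir483, a miR gene inside Igf2, made by targeting in embryonic stem cells, from which Cre then removed the selection marker. Cells of 2 clones were injected into blastocysts, and the line was kept by crosses to C57BL/6J.

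As background, a miR gene is transcribed as a hairpin, from which a short duplex is cut, and either its 5p or its 3p strand is kept as the mature miR that guides repression of mRNAs through its seed, bases 2 to 8. The Sfmbt2 array is found in rodents and not in humans, and Sfmbt2 is imprinted, with expression from the paternal allele in early embryos and extraembryonic tissues. The array is best known from trophoblast and placenta, and it has also been studied in embryonic stem cells. Many of its miRs consist largely of alternating U and G on 5p strands or of alternating C and A on 3p strands, and differ from each other by few bases.

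In GENCODE's annotation of GRCm38, 81 hairpins of these families are listed. Sfmbt2 (chromosome 2, 10370510 to 10595253, plus strand) holds 71 of them, all on the plus strand and all in the intron after exon 11 of its principal transcript, which has 23 exons. That intron runs from 10461473 to 10523944, and the hairpins span 51617 bases of it, from 10466663 to 10518279, with a median gap of 209 bases between neighbours. The intron holds 29 hairpins of miR-669, 23 of miR-466, 14 of miR-467 and 5 of miR-297. In its middle part, a hairpin of miR-467, then miR-466, then miR-669 follow each other 11 times, with a median of 2454.5 bases from the start of a triplet to that of the next. The other 10 hairpins lie on 7 other chromosomes, so the name of the cluster does not cover all members. Matched by name, 43 of the 55 rows can come from Sfmbt2 alone, 6 from both Sfmbt2 and another locus, and 6 from other loci alone.

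RefSeq's table of mature miRs on GRCm38.p6 gave a sequence for 8 of the 80 names, each encoded outside Sfmbt2. They are shown because no other member name had a sequence there. Among them, miR-466i-3p is a name of the 3p row with the most reads, while the others belong to rows without a read. They therefore do not describe the rows of Sfmbt2 alone. Capitals mark the seed.
miR-466i-3p: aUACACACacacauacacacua
miR-466q: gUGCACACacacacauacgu
miR-467f: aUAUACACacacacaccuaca
miR-467g: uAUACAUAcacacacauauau
miR-466j: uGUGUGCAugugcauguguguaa
miR-466k: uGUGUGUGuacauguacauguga
miR-467h: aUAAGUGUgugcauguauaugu
miR-669n: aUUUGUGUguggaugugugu

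The first 4 hold the motif CACACA and the last 4 the motif UGUGUG, searched on the strand of the mature miR. Of the 1679 mature miRs of the table, 0.715% hold CACACA and 1.67% hold UGUGUG. Alternating C and A run for 12 bases in miR-466q and miR-467f and for 11 in miR-466i-3p, and alternating U and G for 9 in miR-466k, against a median longest run of 3 over the whole table. The 8 miRs have 8 different seeds, of which 7 occur in no other entry of the table. As the table holds only 8 of the 80 member names, it cannot show whether other members share these seeds. On GRCm38.p6, miR-466i-3p is encoded on the plus strand of chromosome 13 (17747552 to 17747573), and its hairpin, Mir466i (17747473 to 17747593), lies within Cdk13, which is transcribed from the other strand. Reads of miR-466i-3p share a row with miR-466f-3p, whose hairpins are in Sfmbt2 and at another place on chromosome 13, so they cannot be assigned to either locus.

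Between 658665 and 1211160 reads per library were counted. With 3 counts taken as the floor, the lowest level that can be told from 0 was 2.48 to 4.55 CPM. CPM is a count divided by the library's total and scaled to 1e+06. For the levels in CPM below, but not for the floors, that total was first multiplied by the library's TMM scaling factor from edgeR. Such floors cover counting error alone, as amplified copies of 1 molecule are counted apart unless collapsed. No entry of the table equals 1, so a single read of a member cannot be seen. The hepatocyte miR miR-122-5p was between 118494 and 169645 CPM in all libraries, and of the 2 neural miRs looked at miR-124-3p had no read, while miR-9-5p was between 17.1 and 112 CPM except in Mir483Pat-KO replicate 1, at 499 CPM, whose member sum of 261 CPM lay within the range of the others. The deleted miR-483-3p had 984 to 1236 CPM in WT livers, while no Mir483Pat-KO liver exceeded 25.0 CPM. WT libraries carry index numbers 37 to 41 and Mir483Pat-KO libraries 42 to 48, so index order and genotype cannot be told apart.

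The cluster families were present in fetal liver at a low level. Of the 55 rows, 28 (50.9%) had a read in at least 1 library, against 34.9% of all other rows. Together they took 2709 reads of 10175940, or 0.0266% of all reads counted. Reads were found in every library for 10 rows, in at least 6 libraries for 17 and in 3 or fewer libraries for 9. The other 27 rows had no read in any of the 12 libraries, among them miR-466l-3p and the row shared by miR-466k and miR-466l-5p, whose hairpin Mir466l is in Sfmbt2. In bulk liver, fewer cells of a type and less RNA per cell cannot be told apart.

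A single library showed between 15 and 20 member rows, with means of 17.8 ± 2.28 for WT (SD, n = 5) and 17.3 ± 1.60 for Mir483Pat-KO (SD, n = 7). WT libraries 1 to 5 showed 18, 20, 16, 20 and 15 rows, and the Mir483Pat-KO libraries 15 to 20 with a median of 17. The genotypes therefore overlapped over the whole range. With every library thinned to the 658665 reads of the smallest, and a row taken as seen with at least 2 reads as in the table itself, the means were 16.9 ± 2.27 (SD, n = 5) and 16.7 ± 1.72 (SD, n = 7). Reads that the table left out as single counts cannot enter this thinning.

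For comparison, the miR-379 to miR-410 cluster, another large array of imprinted miRs, hosted by the non-coding Mirg transcript, had reads on 65 of its 74 rows. Its summed level was 85547 ± 3881 CPM (SD, n = 5) in WT, while that of the Sfmbt2 families was 266 ± 26.5 CPM (SD, n = 5). No test was made between the 2 clusters.

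The reads were spread over several rows rather than held by 1. The first 5 rows took 57.7% of the member reads and the first 10 took 81.7%. The leading row joined miR-669a-5p, known as a repressor of the muscle regulator MyoD, with miR-669p-5p. It held 431 reads, or 15.9% of the member reads, and ranked 255 among all rows of the table. It led the members in 7 of 12 libraries. The row of miR-467a-5p and miR-467b-5p, of which miR-467b has been linked to lipoprotein lipase, led in 2, and miR-467e-5p, miR-669c-5p and the row of miR-466f-3p and miR-466i-3p in 1 each.

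By family, miR-669 took 1205 reads (44.5%) on 12 of its 26 rows, miR-467 took 998 (36.8%) on 6 of 9 and miR-466 took 481 (17.8%) on 7 of 17. miR-297 took 25 reads (0.923%) on 3 of 4 rows, which were seen in at most 3 libraries each. A row that joins miR-466 and miR-669 names is counted in both families and had no read.

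Reads were not in proportion to the number of hairpins that a row names. In 3 rows the 5p strand can come from 10 or more hairpins, and 30 of their 37 hairpins sit in the triplets. Of these, miR-669a-5p and miR-669p-5p (14 hairpins) had 30.8 reads per hairpin and miR-467a-5p and miR-467b-5p (11 hairpins) had 28.5. The row of miR-466a-5p, miR-466b-5p, miR-466e-5p, miR-466o-5p and miR-466p-5p (12 hairpins, 9 of them in triplets) had 71 reads, or 5.92 per hairpin. The miR-466 hairpins of 2 other triplets belong to miR-466c-5p, which had no read. The 3 rows held 30.1% of the member reads.

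As a group, rows of a single hairpin in Sfmbt2 carried more than those 3 rows. There are 14 such 5p rows, of which 12 had reads, and together they held 1401 reads, or 51.7% of the member reads. Singly they had a median of 82.5 reads and at most 300, against 431, 314 and 71 for the 3 rows of many hairpins. miR-669c-5p held 11.1% of the member reads, and miR-467e-5p had 259 reads, miR-467c-5p 258 and miR-467d-5p 126. Mir467c is the first hairpin of the triplet array, at 10473931 to 10474027. Mir467e (10505721 to 10505807), Mir467d (10507630 to 10507714) and Mir669c (10509296 to 10509404) lie just beyond its end. How the authors' counting placed reads that match several of these near-identical miRs is not given in the sources used here, so the split between rows of 1 family is uncertain.

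**Figure D1:**
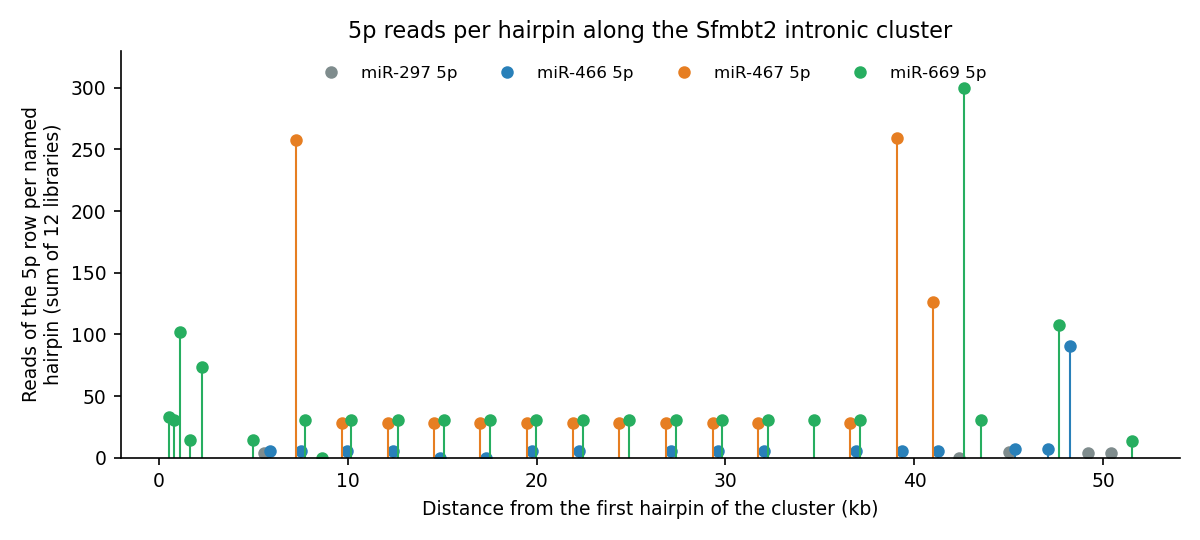
Reads of the 5p row, summed over 12 libraries and divided by the number of hairpins the row names, for each hairpin of the Sfmbt2 intron that a 5p row names, against its distance in kb from the first hairpin; colours give the family. Between 7.27 and 37.1 kb the points stand at 30.8 (miR-669), 28.5 (miR-467) and 5.92 or 0 (miR-466), apart from miR-467c-5p at 258 and miR-669k-5p at 0, and the single-hairpin rows miR-467e-5p, miR-467d-5p and miR-669c-5p stand beyond.

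Of the 6 rows that only loci outside Sfmbt2 can give, 5 had no read and 1 had reads in most libraries. The rows of miR-466q, miR-467f, miR-467g, miR-467h and miR-669n, whose sequences are given above, were those without reads, and miR-466i-5p had 70 reads, found in 10 of 12 libraries, which placed it 14 among the 28 rows with reads. Rows of Sfmbt2 alone held 2395 reads (88.4%), and rows that could come from both held 244 (9.01%), of which 224 were on the row of miR-466f-3p and miR-466i-3p.

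The 5p strand prevailed. Of the 22 rows named 5p, 19 had reads, 2345 in all (86.6% of member reads), and of the 21 rows named 3p, 9 had reads, 364 in all (13.4%). The 12 rows with a name that gives no arm had none. The 5p share was 87.4%, 85.3%, 83.2%, 78.7% and 89.2% in WT replicates 1 to 5, and ranged from 80.1% through a median of 88.0% to 94.2% in Mir483Pat-KO. WT averaged 84.8% ± 4.06 (SD, n = 5) and Mir483Pat-KO 87.9% ± 5.36 (SD, n = 7), a difference of 3.09 percentage points with a standard error of 2.72, so the genotypes overlapped. In the miR-379 to miR-410 cluster the 5p share was 46.3% ± 1.25 (SD, n = 5) in WT.

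A single row decided the 3p share. The row of miR-466f-3p and miR-466i-3p held 61.5% of the 3p reads, and the other 3p rows together had 140. Without the rows that name a hairpin outside Sfmbt2, this row among them, the mean 5p share over the 12 libraries was 94.4%. The 5p partner, miR-466i-5p, had 70 reads against those 224, and the row named for miR-466f and miR-466f-5p had none.

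Of the 25 pairs of a 5p and a 3p row that share a name and have a read, 21 had more 5p reads and 3 more 3p reads, with a median of 91.0% on the 5p row. Some rows enter several pairs, so the pairs are not independent. Paired rows can also name unequal numbers of hairpins, as for miR-669p-3p, with 2, against miR-669a-5p with miR-669p-5p, with 14. Besides miR-466i, the 3p row had more reads for miR-466c and miR-297c. For miR-466c it had 7 against none, on a row that 5 other names share, and for miR-297c 5 against none. miR-297b had 5 on each arm. The 3p reads of miR-297b and miR-297c are the same 5, on a row shared with miR-297a, all in Mir483Pat-KO replicate 2. The 5 reads of miR-297b-5p were all in WT replicate 4. For miR-669c the 5p strand made up 98.7% of the reads, and the 4 reads of miR-669c-3p were all in WT replicate 4. miR-466h-5p had 91 and miR-466h-3p 4. miR-669b-5p had 102 and miR-669b-3p none, and miR-669p-3p also had none. The row of miR-669a-3p and miR-669o-3p had 77, against 431 for miR-669a-5p with miR-669p-5p and 108 for miR-669o-5p, so that the last pair was 58.4% 5p. The 3p strands of miR-467a, c, d and e share 1 row with 33 reads, while their 5p rows had between 126 and 314, and miR-467b-3p had 8.

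The question put to the 2 genotypes is whether loss of Mir483 goes with a change in these miRs. The summed level did not show one. It was 258, 309, 240.2, 251 and 271 CPM in WT replicates 1 to 5 after TMM scaling, and 261, 269, 253, 306, 240.5, 251 and 285 CPM in Mir483Pat-KO replicates 1 to 7. The WT range, 240.2 to 309 CPM, enclosed every Mir483Pat-KO value.

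WT averaged 266 ± 26.5 CPM (SD, n = 5) and Mir483Pat-KO 267 ± 22.6 CPM (SD, n = 7). On the log2 scale the difference, Mir483Pat-KO minus WT, was 0.0055 with a standard error of 0.077, smaller than the spread of either genotype (SD 0.14 and 0.12). Since the members were chosen with earlier results of these data in view, no p-value is given for the sum. A sum of 173 to 301 reads per library has a counting error of 5.76% to 7.60%, and the sum varied by 9.95% between WT fetuses and 8.48% between Mir483Pat-KO fetuses. Its chi-square against counting error was 1.84 per degree of freedom (10 degrees of freedom), against 227 for the much deeper miR-379 to miR-410 cluster. Counting error was thus a large part of the spread of this sum.

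Neither did the families differ by more than their spread. Rows of miR-669 summed to a WT mean of 119 ± 18.2 CPM (SD, n = 5) and a Mir483Pat-KO mean of 119 ± 15.7 CPM (SD, n = 7). For miR-467 these means were 99.2 ± 12.2 CPM and 96.5 ± 15.7 CPM, and for miR-466 44.4 ± 5.11 CPM and 49.4 ± 7.25 CPM, with the same numbers of fetuses. For miR-466, 3 of 7 Mir483Pat-KO libraries were above every WT library and the others lay within the WT range. The miR-466 means differed by 5.02 CPM. Those of miR-466i-5p, a miR-466 row that no Sfmbt2 hairpin can give, differed by 4.97 CPM in the same direction. Other miR-466 rows went both ways. The means of miR-466h-5p, whose hairpin is in Sfmbt2, differed by 3.43 CPM, and those of miR-466f-3p with miR-466i-3p by -1.90 CPM. The family difference therefore cannot be assigned to a single row. The summed 3p rows averaged 40.1 ± 9.74 CPM over 5 WT fetuses and 32.0 ± 13.7 CPM (both SD) over 7 Mir483Pat-KO fetuses, where 4 of 7 libraries were below every WT library.

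**Figure D2:**
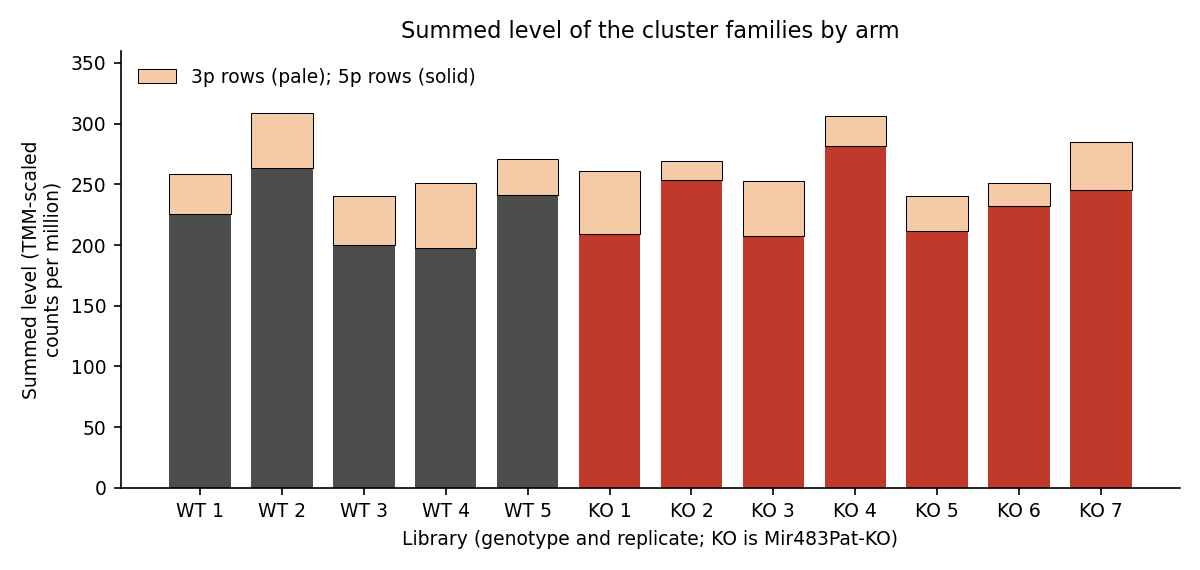
Summed level of the 55 member rows in TMM-scaled CPM for each library, with 5p rows solid (grey WT, red Mir483Pat-KO, written KO) and 3p rows pale. All 12 sums lie between 240.2 and 309 CPM, and the pale part varies from 15.6 to 53.4 CPM.

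The genotypes were then compared row by row by the quasi-likelihood test of edgeR, fitted on all 388 rows that passed edgeR's filter on low counts. Of the 55 member rows 8 passed the filter, and these hold 74.3% of the member reads. A further 20 rows had reads but too few to be tested, and 27 had none. No tested member was called at an adjusted p under 0.05, while 8 of the 388 rows (2.06%) were, 1.03% higher and 1.03% lower in Mir483Pat-KO. None had an unadjusted p under 0.05 either, against 17.5% of all rows tested. DESeq2, which called 9.61% of the rows it gave an adjusted p, and limma-voom, which called 2.58%, also called no member. DESeq2 gave an adjusted p to 1 of the 8 members alone, miR-669a-5p with miR-669p-5p, and left the other 7 without one, so its calls say little about them. No member had an unadjusted p under 0.05 by either.

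The smallest p among the members belonged to miR-669c-5p. It was 20.6, 31.9, 18.8, 18.2 and 39.2 CPM in WT replicates 1 to 5, and 19.0 to 43.6 CPM with a median of 35.05 in Mir483Pat-KO. WT replicates 1, 2 and 5 lay among the Mir483Pat-KO values, and 1 Mir483Pat-KO library was above every WT library. The log2 fold change was 0.34 (95% interval -0.19 to 0.88, SE 0.25), and edgeR's test gave an adjusted p of 0.528 after Benjamini-Hochberg correction over all 388 rows. The means were 25.7 ± 9.39 CPM (SD, n = 5) for WT and 32.9 ± 7.97 CPM (SD, n = 7) for Mir483Pat-KO.

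miR-467c-5p was the other tested member with a positive log2 fold change, 0.24 (SE 0.23, with an edgeR adjusted p of 0.675). Its WT values were 16.3, 29.8, 28.2, 24.6 and 18.1 CPM, and its Mir483Pat-KO values ran from 19.7 through a median of 26.5 to 35.3 CPM. The 2 highest Mir483Pat-KO libraries were above the WT range and the others within it.

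The lowest log2 fold changes were those of miR-467d-5p and miR-467e-5p. miR-467d-5p was 12.9, 19.6, 9.39, 7.48 and 18.1 CPM in WT and 4.67 to 17.6 CPM with a median of 12.2 in Mir483Pat-KO, which gave a log2 fold change of -0.28 (95% interval -1.08 to 0.51, SE 0.37, edgeR adjusted p of 0.763). The WT values alone spread over more than the whole difference. miR-467e-5p was 24.9, 19.6, 32.2, 23.5 and 40.2 CPM in WT and 11.3 to 32.5 CPM with a median of 23.7 in Mir483Pat-KO, which gave a log2 fold change of -0.25 (SE 0.26, edgeR adjusted p of 0.722). Of the 7 Mir483Pat-KO libraries, 1 was below the WT range.

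The leading row, miR-669a-5p with miR-669p-5p, hardly differed. It was 37.8, 67.9, 38.9, 32.0 and 37.2 CPM in WT replicates 1 to 5 and 29.2 to 54.2 CPM with a median of 43.4 in Mir483Pat-KO, so that the log2 fold change was -0.013 (95% interval -0.46 to 0.43, SE 0.21). WT replicate 2 stood above all other libraries, and without it the log2 fold change was 0.19. For miR-467a-5p with miR-467b-5p, the WT values were 40.3, 31.9, 24.2, 25.6 and 31.2 CPM and the Mir483Pat-KO values 17.6 to 51.5 CPM with a median of 28.3, and the log2 fold change was -0.022 (SE 0.24). These 2 values are so near 0 that their sign turns with the setting.

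The row of miR-466f-3p and miR-466i-3p varied most among the 8 tested rows. It was 15.4, 22.6, 17.4, 35.2 and 24.1 CPM in WT and 7.79 to 36.5 CPM with a median of 19.0 in Mir483Pat-KO, and the log2 fold change was -0.12 (SE 0.35). Its biological coefficient of variation, edgeR's estimate of the spread beyond counting error, was 35.5%, while those of the other 7 tested members lay between 19.1% and 28.0%. The median was 23.7% over the 8 members and 14.8% over all 388 rows. The last tested member, miR-669b-5p, averaged 10.7 ± 4.16 CPM (SD, n = 5) over WT and 9.49 ± 3.11 CPM (SD, n = 7) over Mir483Pat-KO fetuses, with a log2 fold change of -0.19 (SE 0.39).

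Over the 8 tested members the median log2 fold change was -0.070, with 2 above 0 and 6 below, while it was 0.0028 over all 388 rows, of which 49.7% were below 0. This split moved with the setting. It was 3 and 5 with upper-quartile scaling, 4 and 4 with the replicate block, with the animal-number range or with the index number in the design, and 6 and 1 (median 0.061) over the 7 members tested in the lower animal-number range alone. None of the 8 had genotypes that did not overlap, against 2.84% of all rows tested. All 8 intervals of the log2 fold change hold 0, none reaches 1, and those of miR-467d-5p and miR-669b-5p reach beyond -1. For the other 6 rows the interval lies between -1 and 1, and differences inside an interval are not excluded by these data.

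**Figure D3:**
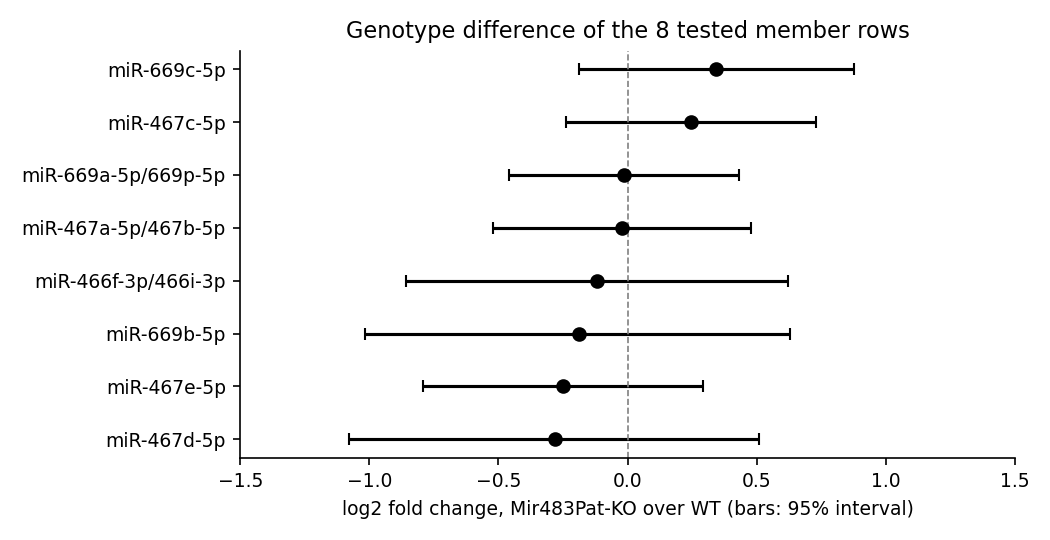
Log2 fold change of Mir483Pat-KO over WT for the 8 tested member rows, with the 95% interval of edgeR's quasi-likelihood fit as bars. Every interval crosses 0, from -1.08 at the lowest end (miR-467d-5p) to 0.88 at the highest (miR-669c-5p).

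Rows below the filter are given by their reads. Of the first 10 rows, miR-669o-5p and miR-466h-5p were not tested. miR-669o-5p had 14, 17, 4, 15 and 10 reads in WT and 5 to 11 with a median of 6 in Mir483Pat-KO, and miR-466h-5p had 11, 5, 4, 4 and 11 in WT and 2 to 13 with a median of 7. Every Mir483Pat-KO library of miR-669o-5p lay within the WT range of CPM, while for miR-466h-5p 3 were above it and 1 below.

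miR-466i-5p, the only row with reads that no Sfmbt2 hairpin can give, had 10, 3, 4, 3 and 0 reads in WT and 0 to 15 with a median of 6 in Mir483Pat-KO. The 3 libraries with the most were all Mir483Pat-KO when scaled to CPM, and each genotype held a library with none. Under a filter of at least 1 CPM in at least 5 libraries, with 503 rows tested, the log2 fold change came to 1.11 (SE 0.79, edgeR adjusted p of 0.614). The row of miR-669a-3p and miR-669o-3p had 12, 9, 13, 10 and 5 reads in WT and 0 to 9 with a median of 4 in Mir483Pat-KO, and under the same filter the log2 fold change came to -0.98 (SE 0.72, edgeR adjusted p of 0.637).

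miR-467b-3p had 5 and 3 reads in WT replicates 1 and 2 and none in any other library. With no filter at all, it was the member with the smallest unadjusted p, 0.0479, for which edgeR's adjusted p was 0.343, over the 682 rows with a count, of which 14.1% had an unadjusted p under 0.05. Of the other rows with reads in 3 or fewer libraries, none exceeded 15 reads in all.

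A count of 0 is a weak statement in this table. Where the other libraries of the genotype predicted 5 to 10 reads of a row, members were at 0 in 5 of 63 entries (7.94%), and all other rows in 189 of 818 (23.1%). A Poisson count with a mean of 5 would be 0 in 0.674% of entries. Where 10 to 20 reads were predicted, no member entry of 36 was at 0, against 54 of 741 (7.29%) among other rows.

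**Figure D4:**
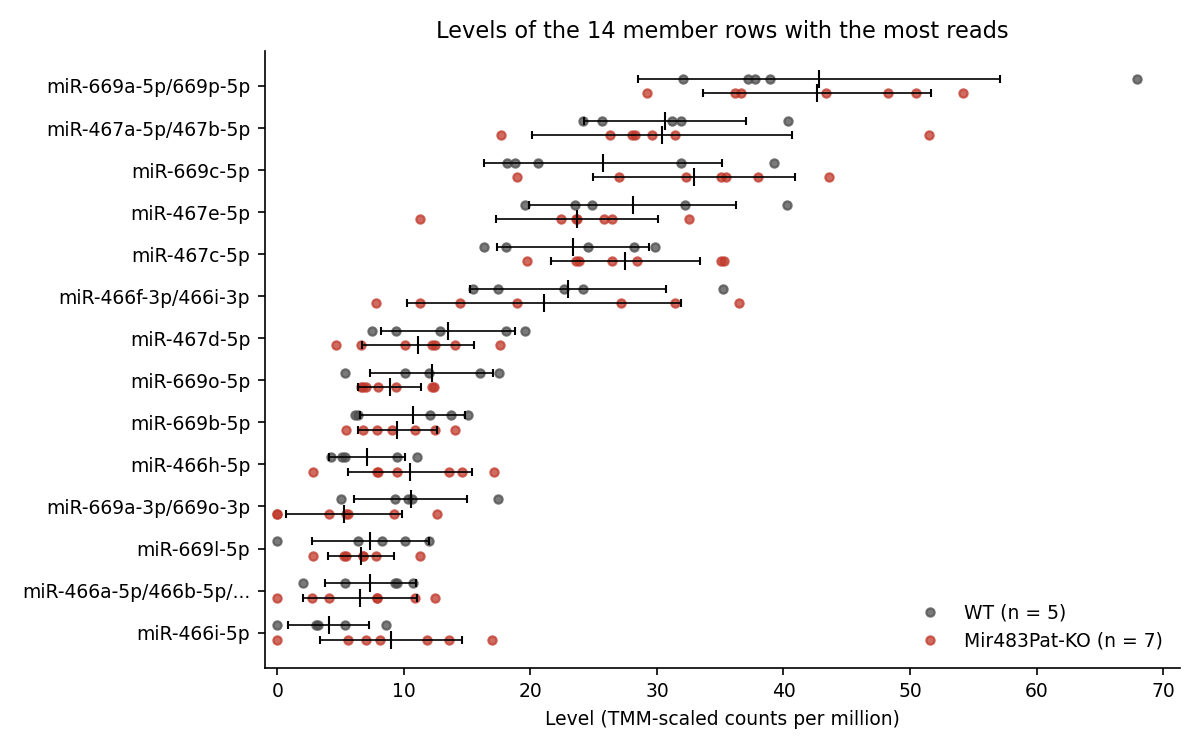
Level in TMM-scaled CPM of the 14 member rows with the most reads, 1 point per library (grey WT, red Mir483Pat-KO), with the mean as a tick and the SD as a bar; the row written with dots joins 5 miR-466 names. The points of both genotypes overlap in every row, from 42.8 and 42.6 CPM for the leading row to 4.05 and 9.02 CPM for miR-466i-5p.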

How the data were processed

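The authors prepared small RNA libraries with the TruSeq Small RNA kit, aligned and counted reads with miRge 3.0, and deposited the raw whole-number counts of each mature miR for each fetus. Columns were assigned to fetuses by the animal number in their names. How miRge shares reads among near-identical miRs, its miR reference and adapter trimming are not given in the sources used here. Reads of different rows of these families may therefore be misplaced.

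Members and lists were chosen with earlier results of these data known. Hairpins were matched to rows by name (gene Mir466 as miR-466a and Mir297-1 as miR-297a). The filter was edgeR's filterByExpr (minimum count 10, minimum total count 15), scaling was TMM over the rows kept with each library's full total, and genotypes were compared by edgeR 4.0.16 (R 4.3.3; glmQLFit with legacy = TRUE, then glmQLFTest). Genotype was the one term of the design, and p-values were adjusted by Benjamini-Hochberg over the 388 rows tested. Sums, arm shares and rows detected are means with the SD over fetuses, without a test. The code was tested on simulated counts. Alternatives were other scalings, filters and dispersions, limma-voom (limma 3.58.1), DESeq2 1.42.0, the replicate number, the animal-number range and the library index in the design, the lower range alone, and each fetus left out. Animal numbers in the labels fall into a lower range, with 4 WT and 4 Mir483Pat-KO fetuses, and an upper range, with 1 and 3. Named are the 10 rows with the most reads, their partner arms, the 2 highest and 2 lowest log2 fold changes and any member called or with an unadjusted p under 0.05. miR-466i-5p is named as a partner arm; other rows of few reads were named after their values were seen.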

Additional observations from a re-analysis of the deposited data

Results flagged for a closer look

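In each genotype 13 measures were searched for a library far from the rest, 26 searches in all, and 2 such libraries were found. Chance alone gives such a library in about 1 in 20 searches, so 1 or 2 among 26 searches would not be unusual. The row of miR-669a-5p and miR-669p-5p was at 67.9 CPM in WT replicate 2, where the next WT library was at 38.9 and the lowest at 32.0 CPM, a gap of 0.808 of the range. The row of miR-467a-5p and miR-467b-5p was at 51.5 CPM in Mir483Pat-KO replicate 4, where the next was at 31.5 and the lowest at 17.6 CPM, a gap of 0.592 of the range. These 2 libraries also had the highest summed level of their genotype, 309 and 306 CPM. Each of these sums includes the outlying row itself, so it is not a separate observation. No cause was tested.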

How the results depend on the processing

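No member was called under any of the 15 alternatives or the 12 fits that each left out 1 fetus (0 to 0 calls), where DESeq2 gave an adjusted p to 1 of the 8 members alone, although without WT replicate 5 miR-669c-5p had an unadjusted p of 0.0470 (log2 fold change 0.54, adjusted p = 0.295 by edgeR). The summed level difference of 0.0055 stayed between -0.062 (library size alone) and 0.052 (rows with 1 miR name), moved by less than 1 SD throughout, and ran from -0.030 to 0.061 with each fetus left out. The mean 5p share of 86.6% was 98.9% over rows with 1 name and 94.4% without rows that name a hairpin outside Sfmbt2, the latter chosen after the data were seen, and 85.9% to 87.3% with each fetus left out. Of the 28 rows detected, 17 had a count in at least 6 of 12 libraries. Fewer rows enter each of these by construction. A mean of 17.5 rows was seen per library, 17.4 after thinning to the smallest library and 16.8 where at least 2 reads were then required, a setting also chosen after the data were seen.

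Some single rows changed sign, none of them called in any fit. The cause was not tested. For miR-669a-5p with miR-669p-5p the log2 fold change was 0.00068 with upper-quartile scaling, 0.080 with the replicate block, 0.039 with the animal-number range, 0.019 in the lower range alone, 0.47 with the index number, and -0.10 to 0.19 with each fetus left out. For miR-467a-5p with miR-467b-5p it was 0.083 with the replicate block, 0.038 with the animal-number range, 0.18 in the lower range, 0.50 with the index number, and -0.20 to 0.10 with each fetus left out. In the lower range miR-467e-5p was at 0.061 and the row of miR-466f-3p and miR-466i-3p at 0.069, the latter between -0.31 and 0.084 with each fetus left out. With the index number miR-467c-5p was at -0.15 and miR-669b-5p at 0.041. Same-numbered fetuses are different animals, and the correlations of their deviations ran from -0.24 to 0.23, so the numbers do not pair them. With the replicate block no member was called and the summed difference was 0.0018. With 173 to 301 member reads per library, comparisons of single rows rest on few reads. The 8 tested members also had biological coefficients of variation of 19.1% to 35.5%, beyond counting error. How far depth limits these comparisons was not tested.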
